A study of Saccharomyces cerevisiae with 4 samples.

Results

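The expression of 10 yeast genes for transcription factors of carbon source control was compared between the long-lived SSG1-1 mutant and its wild type. The genes were chosen by name, with earlier results of these data known. They fall into 5 activators (ADR1, CAT8, SIP4, RDS2 and HAP4) and 5 repressors (MIG1, MIG2, MIG3, NRG1 and NRG2). The platform annotation gives each of them 1 probe set, and all 10 were among the 5376 probe sets for 5330 genes that were tested. RNA abundance was read on 4 one-colour Affymetrix arrays, 2 per strain, numbered 1 and 2 by the labels. The wild type was W303 (W303-1A), and the mutant, labelled as strain SSG1, carried the SSG1-1 mutation. The labels do not say which gene SSG1-1 alters and name no other allele. Both strains were kept in YPD, a rich medium, at 25 °C, and then grown in SDC, a synthetic medium, at pH 6.0 for 12 h, reaching early-log phase with 2000000 cells per ml. Nothing in the labels ties the 2 arrays of a strain to separate cultures, so errors and p-values reflect the spread of these arrays alone, and that spread may be technical. In RNA from whole cultures, more transcript per cell and more cells with the transcript cannot be told apart.

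In budding yeast, glucose keeps the genes for using other carbon sources silent. Mig1 and its relatives bind GC-rich sites in promoters and recruit the Cyc8-Tup1 corepressor, and the Nrg repressors act through the same corepressor. When glucose runs low, the Snf1 kinase, the yeast AMP-activated kinase, inactivates Mig1 and allows Adr1, Cat8, Sip4 and Rds2 to act, while Hap4 activates genes of respiration. Much of this control works on the proteins, and arrays measure only RNA.

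The median deposited signal of yeast probe sets lay between 874 and 1171 on the 4 arrays, and the arrays were therefore brought to 1 distribution by quantile normalization before the comparison. Signals below are on that linear scale, and differences are log2, mutant minus wild type, with the standard error (SE) of limma's moderated fit. With 2 arrays per strain the precision was limited, and the median SE over all probe sets was 0.163. The median difference of all probe sets was -0.02, and the middle 50% of them lay between -0.13 and 0.09. The arrays did not sort by strain alone. Across tested probe sets the correlation was 0.985 within the wild type and 0.983 within the mutant, against 0.989 and 0.991 between arrays of different strains that carry the same number (genes are not independent replicates). For 36.3% of probe sets array 1 was brighter than array 2 in both strains. Differences are therefore also given within each number, as mutant array 1 minus wild-type array 1 and mutant array 2 minus wild-type array 2. Genes specific to a mating type were read as markers of the labelled strain. The 7 genes of a cells had signals from 341.0 (ASG7) to 13872.9 (STE2), and the 5 of alpha cells from 17.9 (MF(ALPHA)1) to 2185.0 (AFB1), with SAG1 from 758.3 to 1236.2. These levels come from different probe sets and do not settle the mating type. Of the 7 genes of a cells 4 had both SSG1-1 arrays below both W303 arrays and 0 above. Of the 5 of alpha cells 1 was below and 0 above. Of all probe sets 18.0% were below and 14.0% above. The part of the mating type genes in the results was not tested. Probe sets differ in brightness for the same amount of RNA, so their levels are not set against each other.

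Transcripts of 3 activators, ADR1, CAT8 and HAP4, were higher on both mutant arrays than on both wild-type arrays, by 3.21-fold, 2.05-fold and 1.56-fold. The other 2 activators, SIP4 and RDS2, had overlapping arrays and differences of 0.00 and -0.02. Among the repressors, MIG1 was 1.24-fold higher without overlap, and MIG2, MIG3, NRG1 and NRG2 had overlapping arrays. Of the 5376 probe sets tested, 14.0% showed both SSG1-1 arrays above both W303 arrays and 18.0% showed them below. The count was 3 of 5 above and 0 of 5 below among the activators, and 1 of 5 above and 0 of 5 below among the repressors. No member passed limma's test over all probe sets (0 of 10 at an adjusted p under 0.05, where 0.0186% of all probe sets passed). At an unadjusted limma p under 0.05, 3 members were higher (ADR1, CAT8 and HAP4) and 0 were lower. Of all probe sets 2.72% were higher and 1.80% lower. Since the members were chosen with results known, these counts are a description.

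**Figure D1:**
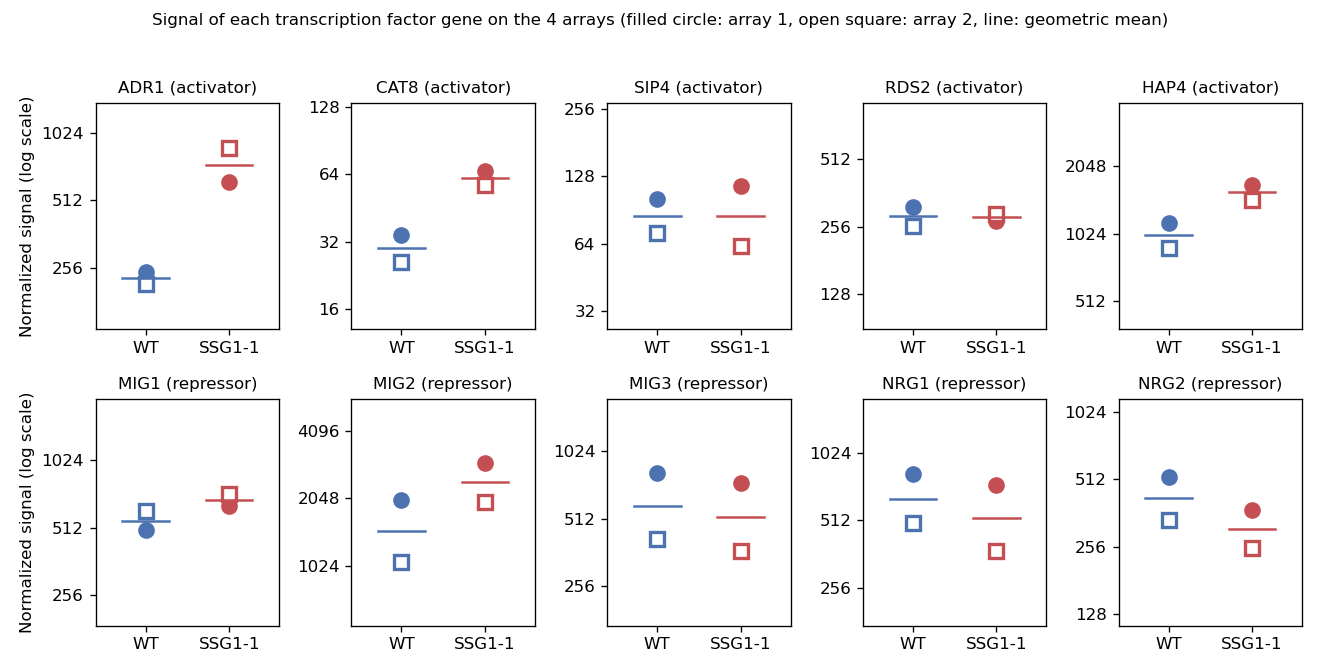
Normalized signal (log scale, a separate axis range per gene) of the 10 genes in wild type (WT) and SSG1-1. Filled circles are arrays 1, open squares arrays 2 and lines geometric means of 2 arrays. ADR1, CAT8, HAP4 and MIG1 show both SSG1-1 arrays above both W303 arrays, while SIP4, RDS2, MIG2, MIG3, NRG1 and NRG2 differ more between arrays 1 and 2 than between strains on the log2 scale.

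ADR1 (YDR216W) encodes the zinc-finger activator of alcohol dehydrogenase 2, peroxisomal and fatty acid oxidation genes. Its signal was 245.3 and 216.2 on wild-type arrays 1 and 2 and 620.9 and 877.7 on mutant arrays 1 and 2. The lowest mutant array stood far above the highest wild-type array. The difference was 1.68 ± 0.22 (SE, n = 2 per strain, 95% interval 1.12 to 2.24), the 9th largest of all 5376, with a limma adjusted p of 0.46. Within arrays 1 it was 1.34 and within arrays 2 it was 2.02, so the size varied between the numbers while the direction was shared. ADR1 passed the adjusted threshold with the values as deposited (difference 1.54, limma adjusted p = 0.0333). In that fit limma took every variance from the mean-variance trend alone.

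CAT8 (YMR280C) encodes a zinc-cluster activator of gluconeogenesis and glyoxylate cycle genes. Its signal was 34.3 and 26.1 in W303 and 66.3 and 57.1 in the mutant. These are dim values, since the 5th percentile of tested probe sets lay between 79.1 and 81.4 on the arrays. The detection calls used stand beside values equal to array 2 of each strain. They were present for CAT8 in both strains, as for the other 9 genes, and no call for array 1 was used. The difference was 1.04 ± 0.31 (SE, n = 2 per strain, 95% interval 0.25 to 1.83, limma adjusted p = 0.944), and it was 0.95 within arrays 1 and 1.13 within arrays 2.

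SIP4 (YJL089W), whose product binds the same promoter element as Cat8 and interacts with the Snf1 kinase, had signals of 101.8 and 71.2 in W303 and 115.5 and 62.7 in the mutant. In both strains array 1 was brighter than array 2, and the strains overlapped. The difference of 0.00 ± 0.39 (SE, n = 2 per strain) had a 95% interval from -0.99 to 0.99, which leaves room for a change of nearly 1 log2 unit in either direction. Its sign depended on the scaling. SIP4 is itself a known Cat8 target.

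RDS2 (YPL133C) encodes a zinc-cluster regulator of gluconeogenesis genes. Its signal was 314.2 and 259.1 in W303 and 271.5 and 291.8 in the mutant, so the mutant arrays fell between the wild-type arrays. The difference was -0.02 ± 0.18 (SE, n = 2 per strain, 95% interval -0.48 to 0.44), at -0.21 within arrays 1 and 0.17 within arrays 2, and it turned to 0.02 with median centring.

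HAP4 (YKL109W) encodes the subunit that gives the Hap2/3/4/5 complex its activation function on respiratory genes. Its signal was 1139.8 and 889.8 in W303 and 1695.7 and 1454.7 in the mutant. Both mutant arrays were higher, and the difference of 0.64 ± 0.18 (SE, n = 2 per strain, 95% interval 0.17 to 1.11, limma adjusted p = 0.944) was 0.57 within arrays 1 and 0.71 within arrays 2. The 5 activators had a median difference of 0.64, against -0.02 for all probe sets.

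MIG1 (YGL035C) encodes the main zinc-finger repressor of glucose-repressed genes. Its signal was 499.8 and 611.3 in W303 and 644.6 and 723.7 in the mutant. The strains did not overlap after normalization, but in the deposited values they did (565.2 and 606.1 against 534.0 and 780.8). The difference was 0.31 ± 0.17 (SE, n = 2 per strain, 95% interval -0.13 to 0.74, limma adjusted p = 0.998), or 0.14 in the deposited values, where all probe sets had a median of -0.15.

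MIG2 (YGL209W) encodes a second Mig-type repressor, whose gene is induced by glucose. Its signal was 2005.8 and 1062.3 in W303 and 2950.7 and 1976.9 in the mutant. The dimmer mutant array lay just below the brighter wild-type array, so the strains overlapped. The difference was 0.73 ± 0.36 (SE, n = 2 per strain, 95% interval -0.21 to 1.66, limma adjusted p = 0.998), at 0.56 within arrays 1 and 0.90 within arrays 2. It ranked 65th from the highest of all probe sets, above HAP4 at 88th. Its SE was larger than that of HAP4, and array 1 was brighter than array 2 by 1.89-fold in W303 and 1.49-fold in the mutant.

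MIG3 (YER028C), the closest relative of MIG2, had signals of 817.4 and 414.8 in W303 and 739.3 and 365.4 in the mutant. Array 1 was brighter than array 2 by 1.97-fold in W303 and 2.02-fold in the mutant, and the strains overlapped. The difference between strains was -0.16 ± 0.47 (SE, n = 2 per strain, 95% interval -1.36 to 1.03), at -0.14 within arrays 1 and -0.18 within arrays 2.

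NRG1 (YDR043C) and NRG2 (YBR066C) encode zinc-finger repressors of glucose-repressed genes and of invasive growth. NRG1 had signals of 823.9 and 495.8 in W303 and 737.9 and 374.5 in the mutant, a difference of -0.28 ± 0.41 (SE, n = 2 per strain, 95% interval -1.33 to 0.77). NRG2 had signals of 525.0 and 338.6 in W303 and 374.5 and 253.7 in the mutant. Its difference of -0.45 ± 0.30 (SE, n = 2 per strain, 95% interval -1.23 to 0.33, limma adjusted p = 0.998) was the lowest of the 10 genes and ranked 119th from the lowest of all probe sets. It was -0.49 within arrays 1 and -0.42 within arrays 2. In the deposited values both mutant arrays lay below both wild-type arrays for NRG2 (589.9 and 339.5 against 308.8 and 282.8). The 5 repressors had a median of -0.16, with 2 positive and 3 negative, and -0.32 in the deposited values. The sign of that median rested on single arrays. It was 0.16 without wild-type array 1 and 0.22 without mutant array 2, and -0.65 without wild-type array 2 and -0.67 without mutant array 1.

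**Figure D2:**
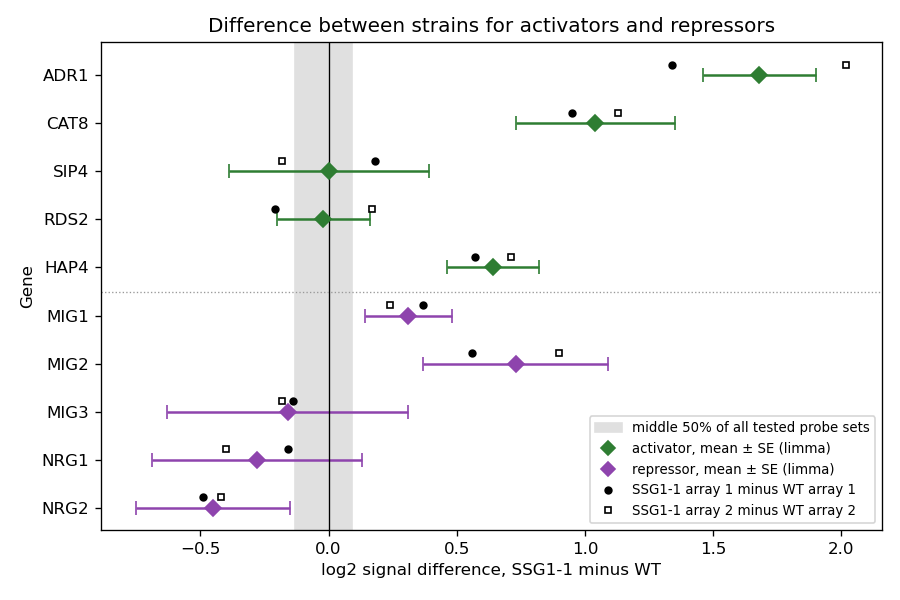
Log2 signal difference, SSG1-1 minus wild type, for 5 activators (green) and 5 repressors (purple). Diamonds with bars are means ± SE from limma (n = 2 arrays per strain), small black marks the differences within arrays 1 (circles) and within arrays 2 (squares), and the grey band the middle 50% of all tested probe sets (-0.13 to 0.09). ADR1, CAT8, HAP4, MIG1 and MIG2 lie to the right of the band in both numbers, and NRG2, NRG1 and MIG3 to its left.

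Set against each other, the mean log2 signal of the activators minus that of the repressors was 0.64 higher in the mutant than in the wild type. It was 0.54 within arrays 1 and 0.74 within arrays 2, and all of this is a description of genes chosen with results known. The groups were mixed in themselves. MIG2 and MIG1 stood on the same side as the activators, and SIP4 and RDS2 had differences close to those of all probe sets.

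The Mig and Nrg repressors each include a pair of relatives whose RNA can be compared within an array, where a change of the ratio shows unequal change of the genes. These pairs were picked out after the values were seen. The log2 ratio of MIG2 over MIG3 was 1.30 and 1.36 in W303 and 2.00 and 2.44 on the mutant arrays. The ratio did not overlap between strains and was 0.89 higher in the mutant, although both genes overlapped when taken alone. An exact permutation test of the 4 arrays gave a two-sided p of 0.333 (0.667 adjusted over 2 pairs), which is the smallest p that 2 arrays against 2 allow. The log2 ratio of NRG1 over NRG2 was 0.65 and 0.55 in W303 and 0.98 and 0.56 in the mutant, with a change of 0.17 and overlapping arrays (exact permutation p = 0.667, two-sided). Levels of different probe sets are not comparable, so only the changes of these ratios have a meaning.

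For several of these genes the arrays of 1 strain differed as much as the strains did. Array 1 was brighter than array 2 in both strains for 7 of the 10 genes and for 4 of the 5 repressors, against 36.3% of all probe sets. Averaged over strains, arrays 1 minus arrays 2 was 1.00 for MIG3, 0.86 for NRG1, 0.75 for MIG2, 0.70 for SIP4 and 0.60 for NRG2. It was 0.30 for CAT8, 0.29 for HAP4, 0.09 for RDS2, -0.16 for ADR1 and -0.23 for MIG1. ADR1 and CAT8, with the largest strain differences, thus had averages between the numbers smaller in size than those differences, while MIG2 had a large value of both. For CAT8 array 1 was brighter than array 2 by 1.31-fold in W303 and 1.16-fold in the mutant. For ADR1 the average joins opposite signs. Its array 1 stood at 1.13-fold of array 2 in W303 and at 0.707-fold in the mutant. What the numbers stand for is not in the labels, and their part in these results was not tested.

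**Figure D3:**
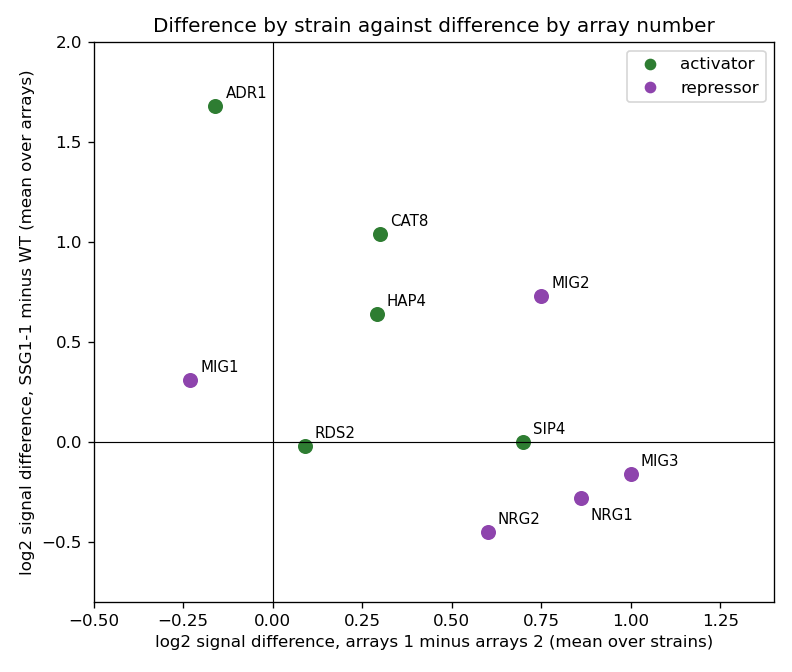
Each gene's log2 difference between strains (vertical axis) against its log2 difference between arrays 1 and arrays 2 averaged over strains (horizontal axis). ADR1 stands highest at 1.68 with a number difference of -0.16, and MIG3, NRG1, SIP4 and MIG2 stand furthest right at 0.70 to 1.00.

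The genes whose profiles over the 4 arrays came nearest were sought for ADR1 and CAT8, the members with a difference of at least 1. The measure was the Euclidean distance between mean-centred log2 profiles, taken against 5329 other genes. Nearest to ADR1 was MTH1, which regulates genes of hexose transport, at a distance of 0.45, followed by the hexose transporter genes HXT7 (0.58, from a probe set of a type that can match a close paralog) and HXT4 (0.60), GTO3 (0.67) and MHT1 (0.77). Nearest to CAT8 was ADH2, the alcohol dehydrogenase that oxidizes ethanol, at a distance of 0.06, with signals of 283.0 and 219.4 in W303 and 576.5 and 477.6 in the mutant. CYB2, a lactate dehydrogenase of mitochondria (0.20), ALD4, a mitochondrial aldehyde dehydrogenase (0.25), the permease gene SEO1 (0.27) and ODC1, a mitochondrial carrier of oxodicarboxylates (0.29), came next. Profiles of 4 points are short, and none of these 10 genes passed the adjusted threshold. ADR1 and CAT8 were taken for their strain differences, so genes with like strain differences come nearest by construction. The genes near ADR1 ranked 5th to 19th from the highest difference, and those near CAT8 23rd to 47th. Shared control was not tested.

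The 10 genes lie on 8 chromosomes, whose median differences all lay between -0.03 and 0.01. Genes next to the members in the R64 reference gave both signs. ADR1 lies beside RAD9, a checkpoint gene at -0.03 ± 0.22 (SE), and CAT8 beside GPI12 at 0.07 ± 0.13, both with overlapping arrays. HAP4 lies between KTI12 (-0.41 ± 0.19) and SLD2 (-0.34 ± 0.19), both with both SSG1-1 arrays below both W303 arrays. RDS2, with no difference of its own beyond its SE, lies between ODC1 (0.93 ± 0.14) and COX11 (0.27 ± 0.13), both with both mutant arrays above. Also without overlap were DPB11 (0.10 ± 0.14) and ARG3 (-0.25 ± 0.08) beside SIP4 and SMB1 (-0.26 ± 0.13) beside MIG3. Of all probe sets 14.0% were above and 18.0% below. MIG2 lies beside SIP2 (0.14 ± 0.16) and MIG3 beside GAL83 (0.15 ± 0.19), both genes for beta subunits of the Snf1 kinase.

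Target genes of the factors were read from lists of textbook targets, chosen like the members with earlier results of these data known. In each list 0 genes passed the limma adjusted threshold. Of all 5376 probe sets, 14.0% had both mutant arrays above and 18.0% had them below. At an unadjusted limma p under 0.05, 2.72% of all probe sets were higher and 1.80% lower. Targets of Hap4, genes of the respiratory chain, ATP synthase and citric acid cycle and PET9, the mitochondrial ADP/ATP carrier, had both mutant arrays above in 36 of 38 and below in 0. Their median was 0.33, at 0.27 within arrays 1 and 0.35 within arrays 2, and 26 were higher at an unadjusted p under 0.05 and 0 lower. SDH2 (0.67 ± 0.10 SE), SDH4 (0.55 ± 0.08) and CYT1 (0.54 ± 0.11), which encode succinate dehydrogenase subunits and cytochrome c1, led the list, and COX8 (0.08 ± 0.07) and the aconitase gene ACO1 (-0.04 ± 0.09, or 0.01 with median centring) closed it. In the deposited values the median was 0.18, beside -0.15 for all probe sets, and COX8 turned to -0.02. Most of the 38 overlapped there, among them ATP14, SDH1 and COX6, and ACO1 was lower on both mutant arrays. SDH2, SDH4 and CYT1 stayed above. The other subunits of the complex were read beside HAP4, and their differences from it were not tested. HAP2 was at 0.09 ± 0.32 (SE, 95% interval -0.74 to 0.92), HAP3 at -0.02 ± 0.25 and HAP5 at -0.22 ± 0.20, and HAP1, a haem-dependent activator, at -0.25 ± 0.15. Of these 4, HAP5 and HAP1 were lower on both mutant arrays, and the signs of HAP2 and HAP3 depended on the scaling.

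Genes repressed through Mig1 and Mig2 were higher on both mutant arrays in 11 of 16 and lower in 0, with a median of 0.72 (0.62 within arrays 1 and 0.78 within arrays 2). Of all probe sets 14.0% were above and 18.0% below. At an unadjusted limma p under 0.05, 8 were higher and 0 lower, against 2.72% and 1.80% of all probe sets. HXK1, a hexokinase made when glucose is low, had signals of 836.4 and 509.5 in W303 and 5090.5 and 4818.8 in the mutant (2.92 ± 0.26 SE, limma adjusted p = 0.214). HXT4 stood at 1.97 ± 0.22 and MTH1 at 1.65 ± 0.23. SUC2, the invertase gene and the classical Mig1 target, had signals of 1122.4 and 1597.0 in W303 and 1761.5 and 2851.5 in the mutant (0.74 ± 0.30), with no overlap, although its deposited values overlapped. At the low end were ICL1, isocitrate lyase (0.25 ± 0.26), and GAL1, galactokinase (-0.23 ± 0.28), both overlapping. CAT8 is itself on this list, and without it 10 of 15 were above and the median was 0.69. The MIG1 and MIG2 transcripts themselves stood at 0.31 and 0.73. GAL4, HXT13 and MAL12 were not tested.

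Targets of Cat8 and Sip4 had both mutant arrays above in 6 of 14 and below in 1, with a median of 0.33 (0.19 within arrays 1 and 0.45 within arrays 2), and 2 were higher and 0 lower at an unadjusted p under 0.05. Of all probe sets 14.0% were above and 18.0% below, and 2.72% were higher and 1.80% lower at that limma p. The median of these targets was 0.15 without wild-type array 2 and 0.51 without wild-type array 1. ADH2 stood at 1.07 ± 0.20 (SE), REG2, a regulatory subunit of the Glc7 phosphatase, at 0.96 ± 0.53 with overlap, and JEN1, the lactate transporter, at 0.90 ± 0.26. FBP1, the gluconeogenic phosphatase gene, was at 0.83 ± 0.43. The glyoxylate cycle gene MLS1 was at -0.37 ± 0.32 with dim signals of 53.2 and 37.9 in W303 and 33.8 and 35.7 in the mutant, which overlapped in the deposited values. PCK1, MDH2 and CAT2, counted as above after normalization, also overlapped there. SIP4, at 0.00, is itself on this list, and without it the median of 13 genes was 0.37. SFC1 was not tested.

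Targets of Adr1 had both mutant arrays above in 6 of 14 and below in 1, with a median of 0.19 (0.15 within arrays 1 and 0.43 within arrays 2), while ADR1 itself stood at 1.68. At an unadjusted limma p under 0.05, 2 were higher and 1 lower, and POT1 was not tested. The shares of all probe sets were 14.0% above and 18.0% below, and 2.72% higher and 1.80% lower at that p. The Adr1 median was 0.06 without wild-type array 2 and 0.35 without wild-type array 1. ADH2, which is on both lists, led at 1.07, followed by CIT3, mitochondrial citrate synthase (0.67 ± 0.35 SE), and SPS19, a peroxisomal dienoyl-CoA reductase (0.66 ± 0.28). CTA1, the peroxisomal catalase, was at -0.16 ± 0.28 with overlap, but lower on both mutant arrays in the deposited values. ICL2 and PEX11, counted as above after normalization, overlapped there. ATO3, a putative ammonium exporter, was lower on both mutant arrays (10001.8 and 10413.0 against 8714.8 and 8944.2, at -0.21 ± 0.07). Targets of Rds2 had 5 of 8 above and 1 below with a median of 0.42, and 2 were higher and 0 lower at an unadjusted p under 0.05. The median was 0.26 without wild-type array 2. HAP4 is on that list, and without it 4 of 7 were above and the median was 0.32. LSC2, a succinyl-CoA ligase subunit, was at 0.60 ± 0.17, and the malic enzyme gene MAE1 at -0.24 ± 0.14 with overlap. In the deposited values the Rds2 targets PCK1 and PFK27, counted as above, overlapped, and MAE1 was lower on both mutant arrays.

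Genes repressed through Nrg1 and Nrg2 had 2 of 5 above and 0 below, with a median of 0.09, or -0.01 in the deposited values, and 1 was higher and 0 lower at an unadjusted p under 0.05. SUC2 stood at 0.74, and DOG2, a 2-deoxyglucose-6-phosphate phosphatase gene, at 0.39 ± 0.13 (SE), read from a probe set of a type that can match a close paralog. FLO11, a cell surface flocculin of invasive growth, was at 0.09 ± 0.22 and -0.01 in the deposited values. SUC2 and DOG2, counted as above after normalization, overlapped in the deposited values. GAL1, at -0.23, and NRG2 itself, at -0.45, closed the list, and ENA1 was not tested. The Nrg median was 0.31 without mutant array 1 and -0.05 without mutant array 2. Genes under the glucose-regulated repressor Rgt1, which include MIG2 and MIG3, had 4 of 10 above and 0 below, with a median of 0.13, and 3 were higher and 0 lower at an unadjusted p under 0.05. They ran from HXT4 and MTH1 down to MIG3 and HXT1, the low-affinity glucose transporter gene, at -0.19 ± 0.14. Beside the Nrg and Rgt1 counts stand 14.0% of all probe sets above and 18.0% below. At that limma p, 2.72% of all probe sets were higher and 1.80% lower. Several genes stand on more than 1 of the target lists, and the lists are not independent of each other.

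**Figure D4:**
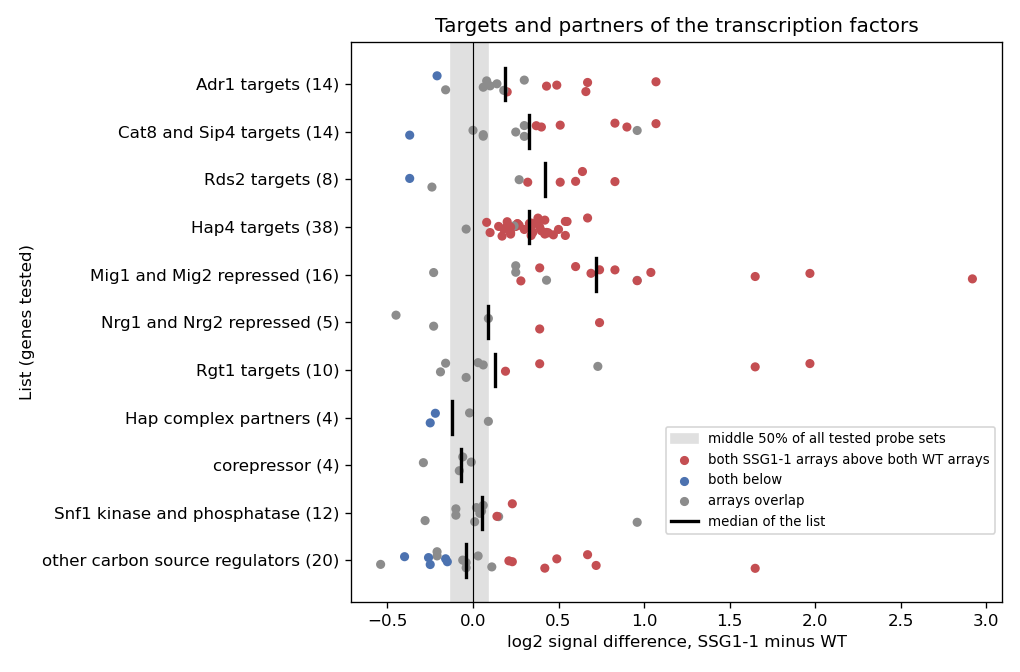
Log2 signal difference, SSG1-1 minus wild type, of each tested gene (points) in the lists of targets and partners, with the number tested in brackets. Red points have both SSG1-1 arrays above both W303 arrays, blue points both below, grey points overlap, black bars are list medians and the grey band is the middle 50% of all tested probe sets. Of the Hap4 targets 36 of 38 are red after normalization, at a narrow range, against 14.0% of all tested probe sets. Most of the 38 overlapped in the deposited values. The Mig1 and Mig2 list reaches furthest right, to HXK1 at 2.92.

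Genes for the proteins that act on these factors were compared last. The shares of all probe sets were again 14.0% above and 18.0% below. At an unadjusted limma p under 0.05 they were 2.72% higher and 1.80% lower. Of 12 genes for the Snf1 kinase, its upstream kinases and the Glc7 phosphatase with its regulators, and HXK2, a hexokinase with a role in glucose repression, 2 had both mutant arrays above and 0 below, with a median of 0.05 (-0.11 in the deposited values), and 0 passed an unadjusted p under 0.05 in either direction. REG2 led at 0.96, followed by the upstream kinase gene TOS3 (0.23 ± 0.13 SE), which overlapped in the deposited values, and GAL83 (0.15, or -0.02 in the deposited values), and SNF4, the gamma subunit (-0.10 ± 0.10), and SAK1, another upstream kinase (-0.28 ± 0.29), were lowest. A list labelled corepressor held CYC8 and TUP1 and also SIN3 and UME6, which are not part of Cyc8-Tup1. Arrays overlapped in all 4 cases, with CYC8 at -0.29 ± 0.29, TUP1 at -0.08 ± 0.15, SIN3 at -0.06 ± 0.13 and UME6 at -0.01 ± 0.23. The median was -0.07, and UME6 turned to 0.02 with median centring.

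Other regulators of carbon metabolism had 7 of 20 above and 5 below, with a median of -0.04 (0.07 without wild-type array 2), and 3 were higher and 0 lower at an unadjusted p under 0.05. The zinc-cluster gene GSM1 stood at 0.72 ± 0.21 (SE) and MSN4, a general stress activator, at 0.67 ± 0.21, behind MTH1. RGT2, the sensor of high glucose, was lower on both mutant arrays (530.5 and 549.4 against 443.3 and 375.3, at -0.40 ± 0.16). OPI1, a repressor of phospholipid genes, was at -0.54 ± 0.31 with overlap. In the deposited values fewer of the 20 were above and more were below. There GSM1 and MSN4 overlapped, and OPI1 was lower on both mutant arrays. Genes above and below both occurred among these 20, as they did among all probe sets (14.0% above and 18.0% below). At that limma p, 2.72% of all probe sets were higher and 1.80% lower. None of the 20 passed the adjusted threshold.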

How the data were processed

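The authors' deposited values are signal intensity per probe set and array, on a linear scale. GCOS, Affymetrix's operating software, is named per the submitters' processing notes, with no version. For background correction and scaling, the method is not given in the sources used here. A second deposited table, named for the MAS5 algorithm, adds detection calls. Its 2 strain-named signal columns equal replicate 2 of each strain in all 10928 values, and the calls beside them were used. 4 further columns name no sample and were not used.

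Gene names came from the platform annotation, matched by gene identifier to the R64 reference table. Probe sets for 1 yeast gene with a present call in at least 1 of the 2 columns were tested (5376 of 5498). Signals under 0.1 were set to 0.1, log2-transformed and quantile-normalized over all probe sets. Strains were compared in R 4.3.3 with limma 3.58.1 (lmFit, eBayes with trend, Benjamini-Hochberg over all probe sets, threshold 0.05). The code was tested on simulated data. A gene with several probe sets was read from the brightest. Figures were drawn with matplotlib 3.10.9.

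The members and lists were chosen with earlier results of these data known. All 10 members were named, and of each list the 3 highest and 2 lowest genes, or all in lists of up to 6. For ADR1 and CAT8 the 5 nearest profiles were named. The mating type genes, the neighbours and the repressor pairs were named outside that rule. Alternatives in scaling, variance model, filter, floor, replicate block and left-out arrays are given in the closing section. A planned description of promoters and proteins is not reported here.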

Additional observations from a re-analysis of the deposited data

How the results depend on the processing

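With 2 arrays per strain the spread is poorly known, and the calls depended on how it was modelled. The main setting called 1 probe set and 0 members. The values as deposited called 6 probe sets and 1 member, median centring 3 probe sets, no mean-variance trend 0, and leaving out 1 array between 2 and 4, with 0 members in each. Same-numbered arrays deviated together (r = 0.634 across genes), but 2 pairs do not show that the numbers pair the samples. With the replicate block 828 probe sets and 6 members passed (ADR1, CAT8, HAP4, MIG1, MIG2 and NRG2). In the block fit and in the deposited values limma took all variance from the trend. ADR1, CAT8, HAP4, MIG1, MIG2 and NRG2 kept their sign in every alternative run, and on leaving out 1 array they ranged over 1.43 to 1.93, 0.84 to 1.23, 0.46 to 0.82, 0.16 to 0.45, 0.27 to 1.19 and -0.77 to -0.14.

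The sign of SIP4 turned with median centring (0.12), quantile normalization over yeast probe sets only (0.01), log2(signal + 16) (0.01) and left-out arrays (-0.44 to 0.44). RDS2 turned with median centring (0.02) and left-out arrays (-0.16 to 0.12), MIG3 (-0.67 to 0.34) and NRG1 (-0.77 to 0.21) with left-out arrays. In the deposited values COX8 (-0.02), FLO11 (-0.01), HAP2 (-0.07) and GAL83 (-0.02) turned, and with median centring ACO1 (0.01), HAP3 (0.01) and UME6 (0.02). Left-out arrays also turned CTA1 (-0.49 to 0.16), ACO1 (-0.13 to 0.05), ICL1 (0.00 to 0.49), GAL1 (-0.48 to 0.03), FLO11 (-0.12 to 0.31), HAP2 (-0.26 to 0.44), HAP3 (-0.33 to 0.28), UME6 (-0.22 to 0.20), TUP1 (-0.23 to 0.07), CYC8 (-0.63 to 0.06), GAL83 (-0.03 to 0.33) and SAK1 (-0.64 to 0.09).

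With a mean log2 signal of at least 6, CAT8 was left out and the median of the activators was 0.32. In the deposited values medians were 0.18 for Hap4 targets and 0.58 for Mig1 and Mig2 repressed genes (0.66 with log2(signal + 16)). They were -0.01 for Nrg1 and Nrg2 repressed genes and 0.05 for Rgt1 targets (0.22 with median centring). The corepressor list stood at -0.23, Snf1 kinase and phosphatase at -0.11 and other regulators at -0.19, beside -0.15 for all probe sets. On leaving out 1 array medians ranged from 0.46 to 0.82 for the activators and -0.67 to 0.22 for the repressors. They ranged from 0.06 to 0.35 for Adr1 targets, 0.15 to 0.51 for Cat8 and Sip4 targets and 0.26 to 0.51 for Rds2 targets. For Hap4 targets they were 0.28 to 0.33 and for Mig1 and Mig2 repressed genes 0.60 to 0.71. For Nrg1 and Nrg2 repressed genes they were -0.05 to 0.31 and for Rgt1 targets 0.15 to 0.25. For the Hap complex partners they were -0.29 to 0.05 and for the corepressor list -0.14 to 0.00. For Snf1 kinase and phosphatase they were 0.03 to 0.10 and for other regulators -0.07 to 0.07. Counts of members without overlap were tried in alternatives chosen after seeing the data. Activators with every remaining mutant array below every remaining wild-type array numbered 0 to 1 on leaving out 1 array. Repressors higher numbered 0 in the deposited values and 1 to 2 on leaving out 1 array, and repressors lower 1 and 0 to 3. With 1 array against 2, strains separate more easily than with 2 against 2. The share over all probe sets is not given for these alternatives, so nothing is concluded from the counts. Beyond the named differences the cause of these shifts was not tested.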
